A study of Mus musculus with 6 samples.

Results

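Read counts were examined for 8 mouse genes that encode the kinases of inositol polyphosphates and inositol pyrophosphates, Ip6k1, Ip6k2, Ip6k3, Ppip5k1, Ppip5k2, Ippk, Ipmk and Itpk1. They were found by name in a table of 54532 genes in whole hearts of 3-month-old male mice on a C57BL/6 background. Hearts 368, 369 and 370 were α1r/rα2s/s (resistant), with the naturally cardiotonic steroid (CTS)-resistant Na/K-ATPase α1, and hearts 379, 380 and 381 were α1s/sα2s/s (sensitive), with an α1 engineered for high CTS affinity. Both genotypes carried the CTS-sensitive α2, no treatment is named for these mice, and the α1 substitutions were present in the whole animal and not only in cardiac myocytes. Ip6k3 was chosen by its counts, which were already known to differ between these genotypes in these same hearts. The other 7 genes were selected on what their proteins do, with earlier results of these data known. The Ip6k3 difference is therefore given as a description without a test.

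Inositol polyphosphates are made stepwise from the second messenger IP3, which phospholipase C releases from membrane lipid. Ipmk and Itpk1 add phosphates to intermediates, and Ippk completes inositol hexakisphosphate, the fully phosphorylated ring. The IP6K enzymes (Ip6k1, Ip6k2, Ip6k3) then attach a further phosphate to one already there, giving a high-energy pyrophosphate, and the PPIP5K enzymes (Ppip5k1, Ppip5k2) attach another at a different place on the ring. The pyrophosphates are known to restrain Akt signaling and to report phosphate and energy supply, and Ip6k3 is the IP6K isoform known for expression in muscle.

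The hearts had 19309312 to 20470065 counts each, and any 2 hearts of the same genotype differed beyond counting error (chi-square per gene of 6.93 to 13.3, where counting alone gives about 1). Mitochondrially encoded genes took 23.4% to 24.4% of the counts in α1r/rα2s/s hearts and 25.0% to 26.0% in α1s/sα2s/s hearts, without overlap. The genotypes were taken from the labels. The tissue label was met by the 10 cardiomyocyte markers, led by Myh6, the main myosin heavy chain of the adult mouse heart, at 23933 CPM (counts put on a common library size, with TMM factors) in α1r/rα2s/s and 24671 CPM in α1s/sα2s/s hearts. These are bulk hearts, so fewer cells of a type and less RNA per cell cannot be told apart.

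All 8 kinase genes were transcribed at low to moderate levels in every heart, with 105 to 5482 counts per gene and heart, and all passed the filter on low counts that left 14866 genes. To compare genes, CPM were divided by gene length in kilobases, giving RPKM. In α1r/rα2s/s hearts the mean levels ran from Ppip5k2 at 14.8 RPKM through Ppip5k1 (8.65), Ip6k1 (7.71), Ip6k3 (5.84), Ip6k2 (3.94), Ipmk (3.38) and Itpk1 (2.18) down to Ippk at 2.01 RPKM. Ppip5k1 and Ip6k1 overlapped in range in these 3 hearts, and the other neighbours in the order did not. In α1s/sα2s/s hearts the order was Ppip5k2 (17.8 RPKM), Ip6k1 (9.49), Ppip5k1 (7.93), Ip6k2 (4.39), Ipmk (3.64), Ip6k3 (2.70), Itpk1 (2.34) and Ippk (2.01). There Ip6k3 overlapped Itpk1, and Itpk1 overlapped Ippk. Ppip5k2 led in all 6 hearts, whereas Ip6k3 held the fourth place in each α1r/rα2s/s heart and the sixth or eighth in α1s/sα2s/s hearts.

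**Figure D1:**
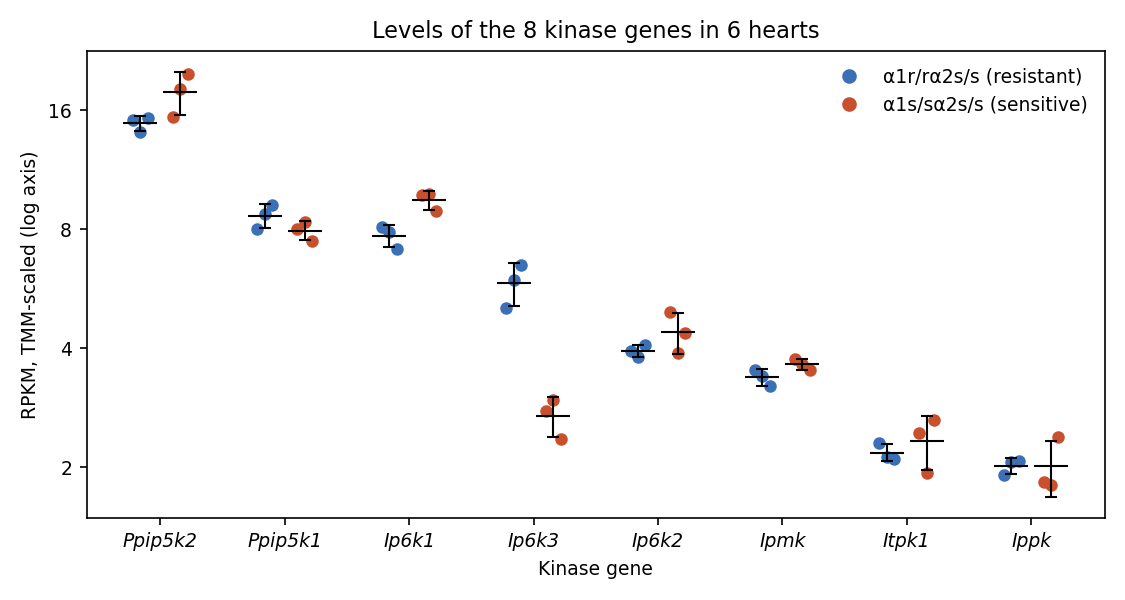
RPKM (log axis) of the 8 kinase genes, with a point for each heart and a bar for the mean and SD of the 3 hearts of a genotype. Ip6k3 is the gene whose genotypes stand furthest apart, at 5.05 to 6.51 RPKM in resistant and 2.36 to 2.96 RPKM in sensitive hearts.

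Ip6k3 (ENSMUSG00000024210) lies on the minus strand of chromosome 17 of mm10 from 27143969 to 27167764. Its counts were 244, 288 and 299 in α1r/rα2s/s hearts and 129, 130 and 105 in α1s/sα2s/s hearts. Its levels were 5.05, 5.96 and 6.51 RPKM in α1r/rα2s/s hearts and 2.78, 2.96 and 2.36 RPKM in α1s/sα2s/s hearts. The lowest α1r/rα2s/s heart lay above the highest α1s/sα2s/s heart. The log2 fold change of α1s/sα2s/s over α1r/rα2s/s hearts was -1.11 (standard error 0.15), or 2.16-fold lower, and it stayed between -1.20 and -1.02 when any one heart was left out. Without the mitochondrially encoded and globin genes it was again -1.11. The biological coefficient of variation of Ip6k3 was 11.9%. The common value over all tested genes was 11.1%, and the other kinase genes had 7.26% to 12.8%. This is edgeR's estimate per gene, which is drawn toward that of other genes and leaves out counting noise. The observed coefficient of variation of Ip6k3 CPM was 12.6% in α1r/rα2s/s and 11.4% in α1s/sα2s/s hearts.

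The sequence before the start of Ip6k3 was set beside that of Ip6k2, an isoform whose genotypes overlapped, to show how the regions of a gene that differed and of one that did not pass the test read. Both stretches are RefSeq promoter windows on GRCm38.p6, cut at the outermost annotated start so that they hold no annotated transcribed bases, and neither overlaps another annotated gene. They run 5′ to 3′ along the gene's strand, and capitals mark CG dinucleotides. The first is chr17:27167796-27168014 on the minus strand and the second chr9:108783562-108783795 on the plus strand.
Ip6k3: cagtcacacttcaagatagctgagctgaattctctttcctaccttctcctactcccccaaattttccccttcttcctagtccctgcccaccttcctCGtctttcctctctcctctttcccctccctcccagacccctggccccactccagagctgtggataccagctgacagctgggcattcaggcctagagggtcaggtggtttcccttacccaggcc
Ip6k2: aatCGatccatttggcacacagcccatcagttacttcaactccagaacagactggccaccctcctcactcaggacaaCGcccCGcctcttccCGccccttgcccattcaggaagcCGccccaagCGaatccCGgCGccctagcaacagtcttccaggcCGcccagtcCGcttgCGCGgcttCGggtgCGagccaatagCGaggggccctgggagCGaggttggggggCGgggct
The Ip6k3 stretch holds 1 CG in 219 bases and that of Ip6k2 17 in 234. In the full windows of 300 bases, from 250 before to 50 after the RefSeq start, Ip6k3 had 4 CG, Ip6k1 had 23 and Ip6k2 had 24, or 6 at its second start, where the median over 32851 mouse windows was 7 and 62.0% of windows had more than Ip6k3. Of the other kinase genes, Ppip5k1 had 3, and Ppip5k2, Ippk, Ipmk and Itpk1 had 20 to 55 in each window. The only Ppip5k1 window, chr2:121350964-121351263 on the minus strand, lies inside the gene as counted, which reaches 121355396. Its CG count therefore does not describe the sequence before that outer start. It cannot show whether a low CG count is shared with Ip6k3 there.
Ip6k3 also had 2 copies of the E-box CAGCTG, which reads the same on both strands, and they begin 88 and 81 bases before the RefSeq start. The stretch around them, with the E-boxes in capitals, is chr17:27167832-27167860 on the minus strand.
Ip6k3 E-boxes: gtggatacCAGCTGaCAGCTGggcattca
E-boxes of this kind are bound by muscle and other basic helix-loop-helix factors. At least 1 CAGCTG was found in 16.3% of all windows and at least 2 in 1.90%, and among the other kinase genes only 1 window of Ippk held it, once. The looser CANNTG, which includes CAGCTG, was in 72.3% of windows. No kinase gene window held TATAAA on either strand or a match to the MEF2 or CArG consensus, which 13.6%, 3.19% and 1.63% of all windows held. These letters are a description of the windows and show no binding.

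Ip6k1 and Ip6k2 are the broadly expressed IP6K isoforms. Ip6k1 (chromosome 9 from 108002501 to 108048782) had 8.12, 7.85 and 7.15 RPKM in α1r/rα2s/s hearts and 9.77, 9.81 and 8.88 RPKM in α1s/sα2s/s hearts. All α1s/sα2s/s hearts lay above all α1r/rα2s/s hearts. The log2 fold change was 0.30 (standard error 0.08, 95% interval 0.13 to 0.47), and the gene missed the threshold of 0.05 in edgeR's quasi-likelihood test (adjusted p = 0.0814 over all tested genes). DESeq2 put it past the threshold (adjusted p = 0.0350), as did edgeR without a filter on low counts (adjusted p = 0.0361). Ip6k2 (chromosome 9 from 108783796 to 108806337) had 3.94, 3.79 and 4.08 RPKM in α1r/rα2s/s hearts and 4.93, 3.88 and 4.36 RPKM in α1s/sα2s/s hearts. Its genotypes overlapped, with a log2 fold change of 0.16 (95% interval -0.09 to 0.40, adjusted p = 0.565, edgeR). The log2 ratio of Ip6k2 to Ip6k1 was -0.97 ± 0.14 in α1r/rα2s/s and -1.12 ± 0.19 in α1s/sα2s/s hearts (SD, n = 3), a difference of -0.15 within the spread (exact two-sided permutation test, p = 0.6).

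The make-up of the IP6K transcripts was set beside their sum. Ip6k3 made up 29.5%, 33.9% and 36.7% of the summed IP6K RPKM in α1r/rα2s/s hearts and 15.9%, 17.8% and 15.1% in α1s/sα2s/s hearts. Ip6k1 made up 47.4%, 44.6% and 40.3% in α1r/rα2s/s hearts and 55.9%, 58.9% and 56.9% in α1s/sα2s/s hearts. Ip6k2 made up 21.5% to 23.1% in α1r/rα2s/s and 23.3% to 28.2% in α1s/sα2s/s hearts, although its own level overlapped. None of the 3 shares overlapped between the genotypes, and since they add up to the whole, a lower Ip6k3 share raises the other two. The summed level was 17.5 ± 0.33 RPKM in α1r/rα2s/s hearts and 16.6 ± 0.94 RPKM in α1s/sα2s/s hearts (SD, n = 3), and the ranges overlapped. That overlap was lost without TMM factors, where the sums were 17.5 to 18.7 RPKM in α1r/rα2s/s and 14.7 to 17.2 RPKM in α1s/sα2s/s hearts. Other scaling factors were not tried for this sum. The difference in means was -0.91 RPKM, -1.86 without TMM factors and -0.42 without heart 381. These sums and shares hold Ip6k3 and are given without a test. Without the correction for gene length the Ip6k3 share was 17.0% ± 2.39 in α1r/rα2s/s and 7.27% ± 0.61 in α1s/sα2s/s hearts (SD, n = 3), since Ip6k3 is the shortest of the 3 genes at 2307 bases.

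**Figure D2:**
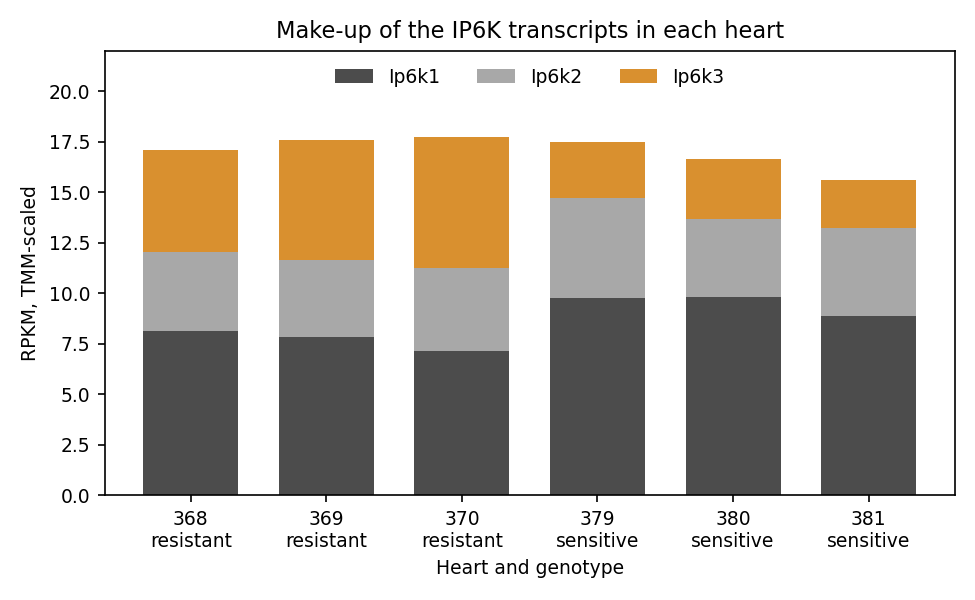
Stacked bars of the RPKM of Ip6k1, Ip6k2 and Ip6k3 in each of the 6 hearts. The Ip6k3 part is 29.5% to 36.7% of the bar in resistant hearts and 15.1% to 17.8% in sensitive hearts, while the bars stand between 15.6 and 17.7 RPKM.

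Ppip5k1 and Ppip5k2 encode the bifunctional kinase and phosphatase enzymes that act after the IP6K step. Ppip5k2 (chromosome 1 from 97706048 to 97770411) had 15.1, 14.1 and 15.3 RPKM in α1r/rα2s/s hearts and 15.4, 18.1 and 19.8 RPKM in α1s/sα2s/s hearts. The α1s/sα2s/s hearts lay above the α1r/rα2s/s hearts, heart 379 by little. The log2 fold change of Ppip5k2 was 0.26 (standard error 0.09, 95% interval 0.08 to 0.44) and missed the threshold (adjusted p = 0.164 in edgeR and 0.0549 in DESeq2), except in edgeR without a filter (adjusted p = 0.0316). Ppip5k1 (chromosome 2 from 121310561 to 121355396) had 8.01, 8.74 and 9.19 RPKM in α1r/rα2s/s hearts and 7.99, 8.34 and 7.46 RPKM in α1s/sα2s/s hearts. The ranges overlapped, with a log2 fold change of -0.12 (95% interval -0.28 to 0.03, adjusted p = 0.469, edgeR).
The level of Ppip5k2 was 1.89, 1.61 and 1.66 times that of Ppip5k1 in α1r/rα2s/s hearts and 1.93, 2.17 and 2.65 times in α1s/sα2s/s hearts. The ratio thus did not overlap between the genotypes, although hearts 368 and 379 nearly met. Its log2 difference was 0.38 (standard error 0.15). An exact two-sided permutation test over hearts gave p = 0.1, the smallest that 3 hearts against 3 allow, and 0.2 after adjustment over the 2 ratios tested, so this design could not show it as significant. Leaving out any one heart kept the sign, with differences from 0.25 to 0.48.

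**Figure D3:**
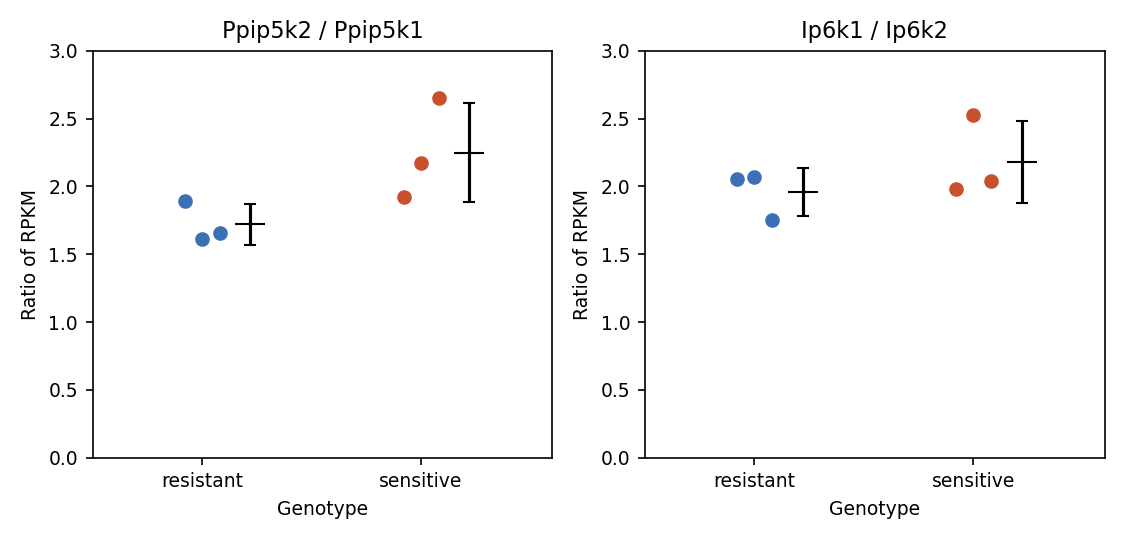
RPKM ratio of Ppip5k2 to Ppip5k1 (left) and of Ip6k1 to Ip6k2 (right), with a point for each heart and the mean and SD of 3 hearts beside them. The Ppip5k ratio is 1.61 to 1.89 in resistant and 1.93 to 2.65 in sensitive hearts, and the Ip6k ratio overlaps.

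Ippk, Ipmk and Itpk1 supply the substrate of the pyrophosphate kinases. Ipmk (chromosome 10 from 71347763 to 71433327) had 3.53, 3.40 and 3.21 RPKM in α1r/rα2s/s hearts and 3.77, 3.64 and 3.52 RPKM in α1s/sα2s/s hearts. Itpk1 (chromosome 12 from 102568582 to 102704930) had 2.30, 2.13 and 2.10 RPKM against 2.44, 1.93 and 2.64 RPKM. Ippk (chromosome 13 from 49421249 to 49464573) had 1.91, 2.07 and 2.07 RPKM against 1.84, 1.81 and 2.38 RPKM. The genotypes overlapped for each of these genes. The log2 fold changes were 0.11 for Ipmk (95% interval -0.09 to 0.30), 0.10 for Itpk1 (-0.25 to 0.45) and -0.0032 for Ippk (-0.32 to 0.31), with adjusted p of 0.639, 0.829 and 0.995 in edgeR.

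Apart from Ip6k3, none of the 7 kinase genes passed an adjusted p of 0.05 in edgeR, and 2 of them, Ip6k1 and Ppip5k2, had an unadjusted p under 0.05, as did 14.5% of all genes tested. With Ip6k3, 1 of 8 passed, where 1.44% of all genes tested did, a count that the choice of Ip6k3 fixes. The genotypes did not overlap in 3 of the 8 genes (Ip6k3, Ip6k1 and Ppip5k2), beside 20.0% of all genes tested. Ip6k3 was the 1 of 8 lower without overlap in α1s/sα2s/s hearts, where 9.98% of all tested genes were. The median log2 fold change was 0.10 over the 8 genes, Ip6k3 included, and -0.0078 over all tested genes.

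**Figure D4:**
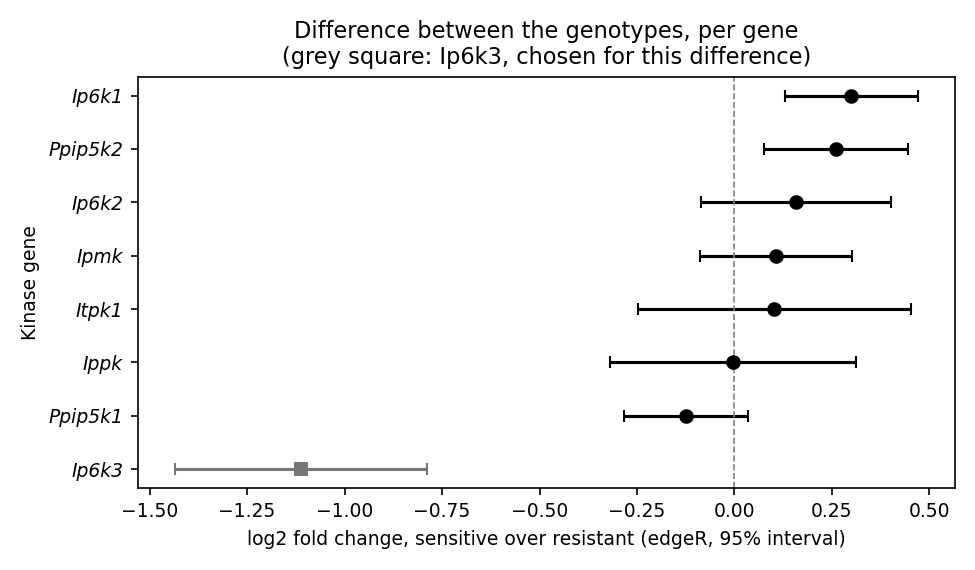
log2 fold change of sensitive over resistant hearts for each kinase gene, with its 95% interval from edgeR (3 hearts per genotype). Ip6k3 (grey square, chosen for this difference) is at -1.11, and the other 7 genes lie between -0.12 and 0.30.

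The rest of the pathway was read from 9 lists, chosen with earlier results of these data known, which limits the counts and tests below. The lists hold 61 genes, of which 56 passed the filter. Of these, 1 gene fell in α1s/sα2s/s hearts and none rose at an adjusted p under 0.05 in edgeR (11 of the 56 had an unadjusted p under 0.05, where 14.5% of all tested genes did), beside 0.659% of all tested genes that fell and 0.780% that rose. The gene that fell was Itpkb, a kinase that phosphorylates IP3 and so draws it away from its receptors. Itpkb (chromosome 1 from 180330485 to 180424802) had 136, 133 and 136 CPM in α1r/rα2s/s hearts and 105, 101 and 103 CPM in α1s/sα2s/s hearts. The genotypes were far apart relative to their spread, at -0.39 on the log2 scale (standard error 0.06, adjusted p = 0.0073 by edgeR). That observed spread was a coefficient of variation of 1.64% in α1r/rα2s/s and 1.75% in α1s/sα2s/s hearts, which 3 hearts estimate poorly. The biological coefficient of variation that edgeR gave Itpkb was 6.55%, among the lowest of all tested genes. Without heart 368 the adjusted p was 0.0519, and without any other heart it was at most 0.0413. Itpkc, its tested paralog, was at 0.27 on the same scale, with an adjusted p of 0.677.

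The phospholipase C list, whose enzymes release IP3, had 10 tested genes, with log2 fold changes from -0.35 to 0.38. Its most abundant genes per kilobase were Plcg1 and Plcb4, at 10.5 and 10.4 RPKM over all hearts, with log2 fold changes of 0.19 and -0.01. All 3 IP3 receptor genes, which release calcium from internal stores, were tested, and Itpr1, Itpr2 and Itpr3 had log2 fold changes of -0.09, -0.21 and -0.11. None of these passed the test.
Removal of phosphates was covered by 16 phosphatase genes with log2 fold changes from -0.34 to 0.21. The most abundant, Inpp5a and Inppl1, were at 48.2 and 25.8 RPKM, with log2 fold changes of -0.05 and 0.03. The 4 hydrolase genes whose enzymes break down inositol pyrophosphates had log2 fold changes from -0.02 to 0.09. Nudt4 and Nudt3 were at 75.5 and 18.0 RPKM over all hearts, where the highest kinase gene, Ppip5k2, had 14.8 and 17.8 RPKM in the genotypes, and their log2 fold changes were 0.07 and -0.02. No gene of either list passed the test.
Genes of inositol supply had 6 tested members with log2 fold changes from -0.66 to 0.38, led in level by Cdipt, the phosphatidylinositol synthase, and Impa2, an inositol monophosphatase, at 11.6 and 9.50 RPKM (log2 fold changes of -0.25 and 0.0023). The phosphate transporter genes had -0.03 to 0.08, with Slc20a2 at 30.9 and Slc20a1 at 4.64 RPKM (log2 fold changes of -0.03 and 0.08). Akt1 and Akt2, at 44.3 and 25.8 RPKM, had -0.01 and 0.05, in a list of 6 Akt pathway genes between -0.05 and 0.09. Genes of casein kinase 2 and its TTT complex substrates, where Csnk2b and Csnk2a1 were at 20.5 and 19.5 RPKM, had -0.30 to 0.12, with 0.06 and -0.05 for this pair. None of these genes passed the test.

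**Figure D5:**
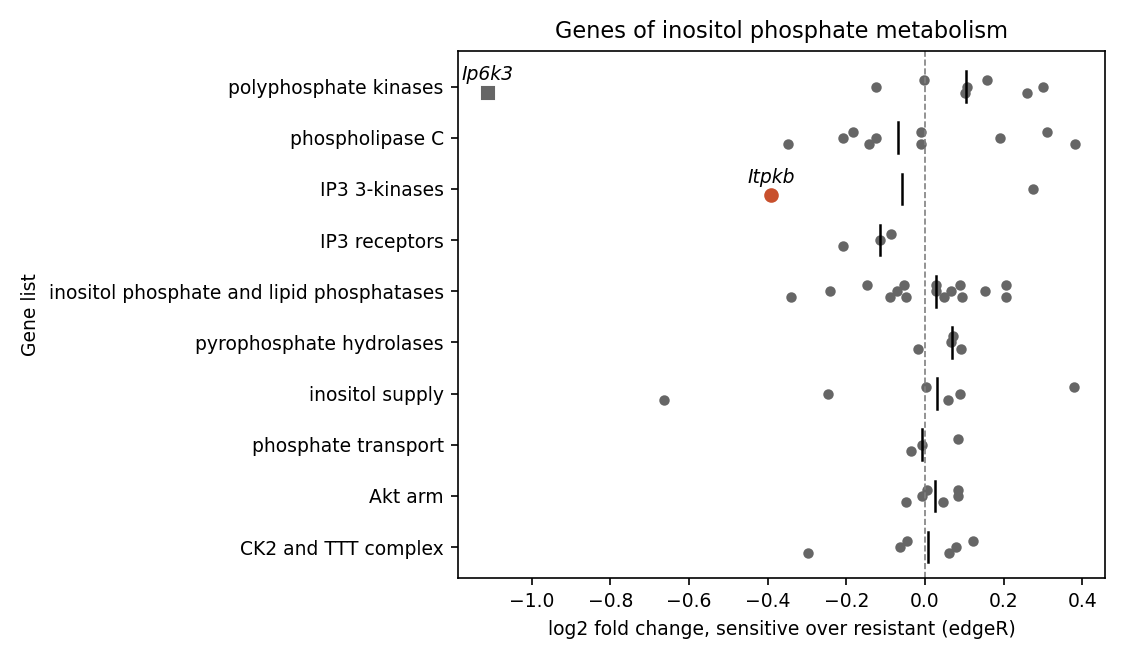
log2 fold change of sensitive over resistant hearts for each tested gene of the kinases and 9 pathway lists, with a vertical bar for the list's median. Itpkb at -0.39 (orange) is the gene of the 9 pathway lists with an adjusted p under 0.05 in edgeR. Ip6k3 at -1.11 (grey square) is also under it but was chosen for its difference, so it is shown as a description. The other points lie between -0.66 and 0.38.

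Uqcc2 lies between Ip6k3 and the IP3 receptor gene Itpr3 on chromosome 17. Of the 7 genes of the table within 100 kb, Ip6k3 included, 5 passed the filter. Itpr3, which ends 21.7 kb from Ip6k3, had a log2 fold change of -0.11, Uqcc2, an assembly factor of a respiratory complex, 0.09, Lemd2, a nuclear envelope protein, 0.13 and the noncoding Gm26724 0.42. Their adjusted p were 0.773, 0.671, 0.589 and 0.551 in edgeR. The antisense Itpr3os and Mir7677 did not pass the filter.

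The genes most like Ip6k3 over the 6 hearts were found by the root mean square difference between centred log2 CPM, among the 12107 genes whose mean log2 CPM reached 1. Since Ip6k3 differed by genotype, this measure picks genes that differ alike. The nearest was Apln, the gene of the peptide apelin, at 0.08, with 20.5, 26.8 and 24.1 CPM in α1r/rα2s/s hearts and 11.1, 12.4 and 9.65 CPM in α1s/sα2s/s hearts. Ret, a receptor tyrosine kinase, followed at 0.09, then Alas1, the first enzyme of heme synthesis, at 0.13, Ccnd1, the gene of cyclin D1, at 0.14 and Cd109, a membrane glycoprotein, at 0.16. Their mean levels in α1r/rα2s/s and α1s/sα2s/s hearts were 9.81 and 4.77 CPM for Ret, 148 and 80.7 CPM for Alas1, 55.8 and 28.5 CPM for Ccnd1, and 4.65 and 2.30 CPM for Cd109. Like Ip6k3, each of the 5 genes was higher in every α1r/rα2s/s heart than in any α1s/sα2s/s heart, which the measure favours. Among the kinase genes the closest was Ppip5k1, at 0.49.

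Because Ip6k3 is a muscle isoform, markers of skeletal muscle and of other tissues were read in the same hearts. Of 14 skeletal muscle markers, 6 passed the filter, and Myh4 and Tnnc2, defining genes of fast fibers, were at 0 in every heart. The summed level of the list was 25.7 to 31.3 CPM in α1r/rα2s/s hearts and 35.2 to 43.0 CPM in α1s/sα2s/s hearts. Single markers went both ways, and Mylpf, a fast myosin light chain, was at a mean of 1.06 CPM in α1r/rα2s/s and 0.63 CPM in α1s/sα2s/s hearts (log2 fold change -0.75, adjusted p = 0.508, edgeR). Most of the sum came from Mybpc2, a myosin-binding protein C at 17.6 ± 1.19 and 25.0 ± 0.80 CPM (SD, n = 3), which rose (log2 fold change 0.50, adjusted p = 0.0216, edgeR), and Casq1 at 7.07 and 9.81 CPM. Casq1 overlapped between the genotypes (adjusted p = 0.331, edgeR). The sum thus rests mainly on these genes and is not a measure of skeletal muscle content. The summed levels of the other 9 marker lists overlapped between the genotypes, and Mybpc2 was the 1 of 50 tested markers past the threshold. Of all genes tested, 1.44% passed it. All 5 atrial markers had negative log2 fold changes, with sums of 157 to 253 CPM in α1r/rα2s/s and 139.6 to 168 CPM in α1s/sα2s/s hearts. The same held for 5 macrophage markers (153 to 236 against 123 to 156 CPM) and 4 smooth muscle markers (104 to 145 against 99.6 to 112 CPM). All 3 tested erythroid, 3 adipocyte and 2 Schwann markers had positive log2 fold changes. The endothelial marker Kdr, a VEGF receptor, was lower without overlap, at -0.50 on the log2 scale, and missed the threshold in edgeR (adjusted p = 0.0694). The other endothelial markers overlapped between the genotypes, with log2 fold changes from -0.17 to 0.12. The median of the list of 6 was -0.04. The part of these markers in the Ip6k3 difference was not tested.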

How the data were processed

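Total RNA of whole hearts was sequenced on an Illumina NovaSeq, and a company did quality control, mapping and quantification. The submitters' processing notes name fastp, STAR, featureCounts and mm10, while versions and the strand setting are not given in the sources used here. The authors deposited raw read counts per gene with no normalization, and a gene length. Their own comparison (fold changes and p-values) was not used.

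Counts (19309312 to 20470065 a heart) were tested with edgeR 4.0.16 in R 4.3.3, using filterByExpr (minimum count 10, minimum total 15), TMM factors, the quasi-likelihood test without covariates, and Benjamini-Hochberg adjustment over 14866 genes at 0.05. Intervals are at 95%. Likeness was taken on log2 CPM (prior count 2). With 3 hearts per genotype an exact permutation test cannot go under 0.1. The labels give only heart numbers, while the paper reports 3 mice per genotype for the sequencing. The p-values measure the spread between these hearts. The code was tested on simulated counts. Alternatives were DESeq2 1.42.0, RLE or upper-quartile factors, other filters (none, 10 counts in every heart, mitochondrial and globin genes removed), a robust prior, and each heart left out.

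The kinase genes and the lists were chosen with earlier results of these data known. Named were the 8 kinase genes, in each pathway list the genes called and the 2 with the highest RPKM, and the 5 genes most like Ip6k3. Tested genes within 100 kb and markers that lead a list or are at 0 were named as well. Casq1, Mylpf, Kdr, Myl7, Col1a1, Lum, Mrc1, Myl3, Plin1, Itpr3os and Mir7677 were added after their values were seen. Some genes of this rule are not reported here. Promoter windows were from RefSeq (GRCm38.p6), where all 8 kinase genes matched.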

Additional observations from a re-analysis of the deposited data

How the results depend on the processing

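No paired analysis was possible because the labels give no pairing of the hearts, and replicates 1 to 3 only follow accession order. The paper calls the control mice littermates, but which hearts share a litter is not given. The hearts are numbered 368 to 370 and 379 to 381, in blocks that coincide with genotype. Anything that follows these numbers cannot be told apart from genotype. The Ip6k3 log2 fold change stayed between -1.20 and -1.02 in all 13 alternatives. Genes called numbered 400 in DESeq2 (246 higher, 154 lower) and 618 without a filter (324 higher, 294 lower), against 214 (116 and 98), and 80 to 158 with a heart left out (42 to 91 higher, 38 to 67 lower). Ip6k1 passed in DESeq2 and without a filter (log2 fold change 0.30 in both), and Ppip5k2 without a filter (0.26). With a heart left out, Ip6k1 was at 0.25 to 0.35 and Ppip5k2 at 0.18 to 0.36, below the threshold of significance each time. Ippk, at -0.0032, changed sign to 0.0014 in DESeq2, 0.00041 with RLE factors and 0.00076 without a filter, and ran from -0.14 to 0.072 with a heart left out. Pathway genes called were 0 to 1 with a heart left out, 0 without heart 368. The Ip6k3 share of the IP6K genes differed by -17.1 percentage points, by -9.71 without length correction and by -19.0 to -15.4 with a heart left out. The summed IP6K level differed by -0.91 RPKM, by -1.86 without TMM and by -1.35 to -0.42 with a heart left out. The cause of these shifts was not tested beyond the settings themselves. The 5 genes most like Ip6k3 were the same 5 with a prior count of 0.5.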

Other observations

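Several kinase genes share genomic ground with other annotated genes, where the counting can leave out or reassign reads. Ip6k1 is spanned over 42770 bases by Gm20662, a protein-coding model on the same strand with 0 counts in every heart. Ppip5k1 overlaps 272 bases of Map1a, and Ppip5k2 overlaps 240 bases of Gin1, both on the opposite strand. Ippk overlaps 551 bases of Cenpp on the opposite strand, which had 29 to 59 counts. Ip6k3 overlaps no other gene of the table. Whether reads were lost to these overlaps was not tested.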
